A study of Gallus gallus with 9 samples.

Results

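The data compared here are from 9 chick embryos that fell into 4 embryos carrying a set of all-or-none transcripts and 5 embryos lacking it. The split was chosen by the measured values themselves: a transcript belonged to the set if it had at least 100 normalized counts in each of the 4 libraries and at most 2 in each of the other 5. A normalized count is a read count divided by a size factor of its library. This rule found 12 of the 12155 genes in the table (0.0987%), and 0 genes met it in the reverse direction. The 4 embryos with the transcripts were PtcDLoop2 replicate 3 and control GFP replicates 1, 2 and 4. The 5 embryos without them were PtcDLoop2 replicates 1, 2, 4 and 5 and control GFP replicate 3.

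RNA sequencing was done on GFP-positive cells sorted from each embryo on its own, and the submitters call the embryos separate biological replicates. Embryos of Hamburger-Hamilton stages 12 to 13 were electroporated with a PtcDLoop2 construct that also makes GFP (5 embryos) or with a GFP construct alone (4 embryos), and were collected after 14 h near stage 16. Electroporation reaches only some cells of a tissue, and the sort took every GFP-positive cell of the dissected region behind the heart. The labels call the cells coelomic epithelium, the lining of the embryonic body cavity. The files identify genes only by Ensembl number, and 0 of those numbers were matched to a symbol in the reference table, so tissue markers and gene roles are not analysed here. In RNA from a pool of sorted cells, fewer cells that make a transcript and less of it per cell cannot be told apart.

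PtcDLoop2 is a form of Patched, the membrane receptor that holds Hedgehog signalling off until a ligand binds it. The altered form is designed not to respond to ligand and so to keep the pathway off in the cells that carry it. Separately from any construct, embryos differ in sex. In birds the female carries one Z and one W chromosome and the male carries a pair of Z chromosomes. Genes found only on W are therefore transcribed in females alone, and many Z genes are more abundant in males because birds lack a chromosome-wide equalization of Z dosage. Neither the labels nor the files give the sex of an embryo or the chromosome of a gene, so whether the split follows sex was not tested.

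The libraries held between 10388989 and 13517164 reads in genes, and the 2 sides overlapped in depth. Detected genes numbered 11020.8 ± 581 (SD, n = 4) with the transcripts and 10818.2 ± 481 (SD, n = 5) without them (two-sided exact permutation p = 0.587 over all divisions of the 9 libraries into 4 and 5). The 10 most abundant genes took 25.5% ± 5.64 of normalized counts with the transcripts and 21.8% ± 7.31 without them. Among 6 measures of the libraries, the third principal component, computed without the set, had the smallest p. Its scores were 31.7 ± 35.3 with the transcripts and -25.4 ± 33.4 without them (two-sided exact permutation p = 0.0476, Benjamini-Hochberg adjusted p = 0.286 over 6 measures). Only the set was left out, so other genes of a like shape, described below, stayed in the components. With components from genes at 100 or more in every library, the smallest adjusted p of the measures was 0.333 (two-sided exact permutation, Benjamini-Hochberg). PtcDLoop2 replicate 1, without the transcripts, stood apart on the first component at 137, against -42.8 to 18.3 in the other 8 libraries. Control replicate 4, with the transcripts, stood apart on the second at 123.5, against -40.4 to 10.9.

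The 12 transcripts of the set averaged from 158.6 to 1056 normalized counts in the embryos with them, and 4 of the 12 were at 0 in all 5 embryos without them. These values chose the split and are given as a description. ENSGALG00000014441 had the highest mean of the set. It had 818.1 normalized counts in PtcDLoop2 replicate 3 and 1979, 791.2 and 634.8 in control replicates 1, 2 and 4, against 0 in PtcDLoop2 replicates 1, 2 and 4, 0.7 in PtcDLoop2 replicate 5 and 0 in control replicate 3. ENSGALG00000026991, the member nearest the upper limit, had 101.7, 270.1, 114.8 and 147.8 in the same 4 libraries, against 0.8 in control replicate 3 and 0 in the other 4. The PtcDLoop2 embryo with the transcripts lay among or just below the control embryos with them in both genes. Of the genes just outside the limits, ENSGALG00000027843 was at 0 in every embryo without the transcripts but reached only 95.6 in PtcDLoop2 replicate 3. ENSGALG00000005785 had 447.3 to 605.1 in the embryos with them and missed the lower limit through a value of 2.1 in PtcDLoop2 replicate 4.

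The limits of the set left out genes of a like shape, called steep genes here. A further 15 genes had at least 10 normalized counts in each of the 4 embryos and at least 10 times the highest value among the 5 embryos without the transcripts, which is 0.124% of the 12143 genes outside the set, and 0 genes did so in reverse. Of the 15, 8 missed the set only through the limit of 100, with means of 37.1 to 555.5 in the embryos with the transcripts, and 7 only through the limit of 2, with means of 545.6 to 8065. The means of all 15 in the embryos with the transcripts ran from 37.1 to 8065 with a median of 545.6, and 5 of these 15 exceeded a mean of 1000, against 1 of the 12 in the set. In 14 of the 15 no embryo without the transcripts exceeded 6.4 normalized counts, and 5 were at 0 in all of them. ENSGALG00000001756 had 4772, 7660, 5634 and 6484 normalized counts in PtcDLoop2 replicate 3 and control replicates 1, 2 and 4. Without the transcripts it had 6.4, 1.1, 3.1 and 4.5 in PtcDLoop2 replicates 1, 2, 4 and 5 and 1.6 in control replicate 3. ENSGALG00000000395 had 6076, 4904, 3893 and 5490 with the transcripts, against 2.8, 1.1, 3.1, 4.5 and 4.1 without them in the same order. The 2 sides did not overlap in either gene, and each value without the transcripts amounts to a few reads. With construct in the model the log2 difference, with minus without on the log2(value + 1) scale, was 10.68 ± 0.57 (SE) for ENSGALG00000001756 and 10.29 ± 0.53 (SE) for ENSGALG00000000395.

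**Figure D1:**
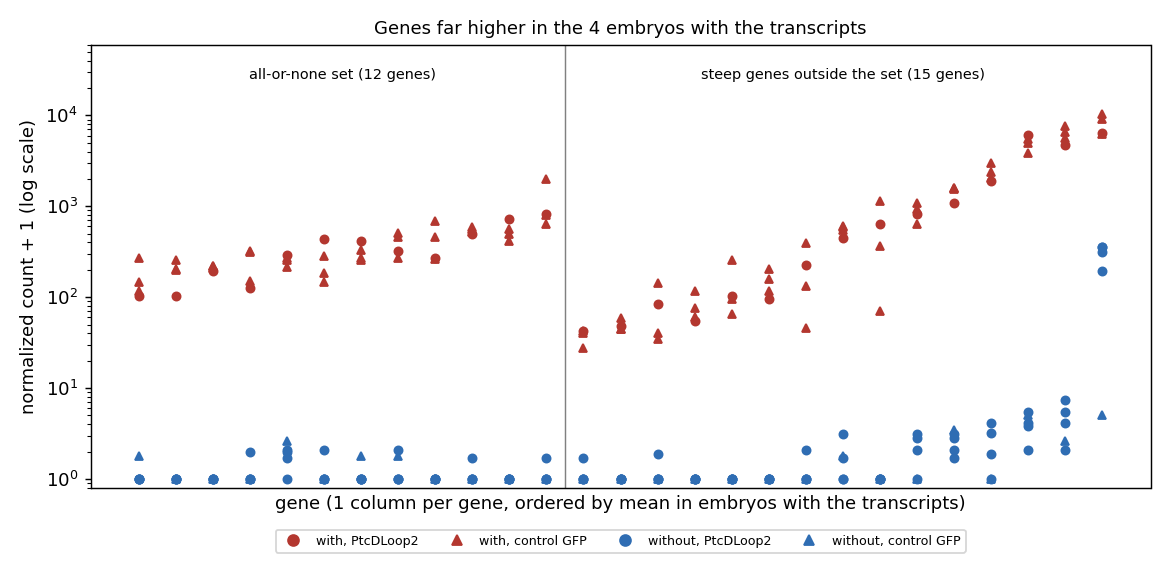
Normalized count + 1 (log scale) of the 12 set members and the 15 further steep genes in each of the 9 embryos, with red for embryos with the transcripts and blue for embryos without them, circles for PtcDLoop2 and triangles for control GFP. Every red point of a gene lies above its blue points, and the rightmost gene, ENSGALG00000014366, has blue circles between 192 and 356 where the other genes lie at 6.4 or less.

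ENSGALG00000014366 was the most abundant of the 15 and differed from the rest in its background. It had 6442, 10305, 9209 and 6303 normalized counts with the transcripts. The 4 PtcDLoop2 embryos without the transcripts had 351.6, 312.6, 356 and 192, and the control embryo without them had 4.1. The transcript was thus 21.3 times higher with the set among PtcDLoop2 embryos and 2099 times higher among control embryos. The interaction of side and construct was -6.24 ± 0.65 (SE) on the log2 scale for ENSGALG00000014366 (limma, Benjamini-Hochberg adjusted p = 0.00746). It was 1 of 5 genes of 9609 with a negative interaction past the threshold (0.052%), and limma-voom on whole reads called 0, with 243 at an unadjusted p under 0.05. This rests on a single control embryo without the transcripts and a single PtcDLoop2 embryo with them, so the construct and those embryos cannot be told apart.

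Where present, these 27 genes differed in how far their values ranged among the 4 embryos. The same ratio was not taken over all genes, so these ranges are not set against other genes. The highest of the 4 values was less than 2 times the lowest in 15 of the 27, with a median ratio of 1.74. The narrowest was ENSGALG00000028913, a set member, with 191.9, 219.9, 207.3 and 220.0 in PtcDLoop2 replicate 3 and control replicates 1, 2 and 4. The widest was ENSGALG00000022674, one of the 15, with 640.7, 70.3, 362.8 and 1148, which is a 16.3-fold span among embryos that all carried it. Its order, with control replicate 4 highest and then PtcDLoop2 replicate 3, control replicate 2 and control replicate 1, was shared by 2 others of the 27, and the 3 identifiers lie close together, at 22674, 22685 and 22690. These genes were picked out after their values were seen. Control replicate 1 had the highest value in 13 of the 27 genes and PtcDLoop2 replicate 3 the lowest in 11.

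Of 9609 genes outside the set with at least 10 normalized counts in at least 4 libraries, limma with construct in the model called 11 higher with the transcripts at an adjusted p under 0.05 (0.114%) and 0 lower (0.00%). All 11 were among the 15 steep genes. In 14 of these 15 every value without the transcripts was under 10, so they passed the filter only through the embryos with them. The adjustment ran over these 9609 genes together with the 12 set members. The set members chose the split, and their small p-values lower the adjusted p-values of the other genes. The count of 11 therefore leans partly on them. Before adjustment 205 of the 9609 genes had a p under 0.05 in limma, 63 higher and 142 lower. That is fewer than the 1 in 20 that evenly spread p-values would give. On whole reads limma-voom called 13, all higher. Because the libraries were split by values measured in them, these counts describe sizes against spread and are not evidence for the split. The model also has less room, as construct and side partly coincide: 3 of 4 control embryos but 1 of 5 PtcDLoop2 embryos had the transcripts. Without the construct term limma called 28 genes outside the set, 14 higher and 14 lower.

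The 2 sides did not overlap in 112 tested genes that were higher with the transcripts (1.17% of 9609) and in 149 that were lower (1.55%). The 112 include the 15 steep genes, which were picked for their size. Among the other 97 higher genes the median was 1.77-fold (mean with over mean without) and 4 were at least 10-fold higher. Among the 149 lower genes the median was 2.07-fold (mean without over mean with) and 4 were at least 10-fold lower. None of the lower genes met the steep rule in reverse.

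Small shifts were examined in the 4592 genes that had at least 100 normalized counts in every library. Between 1.2-fold and 2.2-fold and with no overlap, 48 of these were higher with the transcripts (1.05%) and 77 were lower (1.68%). The lower shifts were the larger ones: they had a median of 1.82-fold (mean without over mean with), and 68 of the 77 were at 1.5-fold or more. The higher shifts had a median of 1.47-fold (mean with over mean without), and 20 of the 48 reached 1.5-fold. These counts and folds use plain means with no term for construct. With construct in the model the median log2 difference was 0.48 for the higher genes and -0.78 for the lower genes. In that limma fit 0 genes of either group were called by side. An unadjusted p under 0.05 was reached by 9 of the 48 higher genes and 56 of the 77 lower genes. Most of the higher genes were thus not separated by side even before adjustment once construct was in the model. Beyond 2.2-fold without overlap lay 25 lower genes, none past 2.99-fold, and 1 higher gene, at 2.27-fold. The excess of lower over higher small shifts was kept in most alternatives and lost in others. A minimum of 50 in every library gave 55 higher and 85 lower genes, and values rescaled to equal totals gave 33 and 69. Leaving out any single embryo other than PtcDLoop2 replicate 2 kept the excess, by as little as 102 higher and 108 lower without PtcDLoop2 replicate 3. Between 1.1-fold and 2.5-fold there were 50 higher and 92 lower genes. Without PtcDLoop2 replicate 4 there were 63 higher and 96 lower. Between 1.3-fold and 1.8-fold there were 36 higher and 37 lower genes. Without PtcDLoop2 replicate 2 there were 108 higher and 102 lower genes, and leaving out PtcDLoop2 replicate 1 and control replicate 4, which had the fewest detected genes, gave 159 higher and 137 lower.

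ENSGALG00000015663 had the smallest p among the lower genes, in the small-shift group and outside the set as a whole. Its adjusted p was 0.0723 (limma, Benjamini-Hochberg), so it was not called. It had 1908 normalized counts in PtcDLoop2 replicate 3 and 1765, 1990 and 2127 in control replicates 1, 2 and 4. Without the transcripts it had 4002, 3792, 4336 and 3650 in PtcDLoop2 replicates 1, 2, 4 and 5 and 3914 in control replicate 3. The means were 1947 ± 151 (SD, n = 4) with the transcripts and 3939 ± 258 (SD, n = 5) without them, a level 2.02 times lower with a log2 difference of -1.02 ± 0.19 (SE). The gap between the sides was wider than the range within either, and the log2 coefficient of the construct, PtcDLoop2 minus control, was -0.01 ± 0.19 (SE).

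ENSGALG00000002777 was also lower with the transcripts, at 1953, 2536, 2557 and 2266 normalized counts, against 6305, 4857, 4695, 3898 and 4393 without them in the same order of libraries. Its log2 difference was -1.09 ± 0.22 (SE), and the lowest embryo without the transcripts, PtcDLoop2 replicate 5, still lay above the highest with them. ENSGALG00000015691 fell just beyond the 2.2-fold limit. It had 5159, 3056, 6869 and 4567 with the transcripts and 12644, 12024, 11493, 11039 and 12397 without them, a level 2.43 times lower with a log2 difference of -1.31 ± 0.26 (SE). Its spread was larger on the side with the transcripts (SD 1577, n = 4) than on the side without them (SD 656, n = 5). With the transcripts, control replicate 1 was 2.25 times below control replicate 2. In limma neither gene was called, at Benjamini-Hochberg adjusted p-values of 0.15 for ENSGALG00000002777 and 0.102 for ENSGALG00000015691.

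The 2 higher small-shift genes with the smallest p were less sharply separated than ENSGALG00000015663. Neither was called (limma, Benjamini-Hochberg adjusted p = 0.938 for ENSGALG00000021024 and 0.9998 for ENSGALG00000027198). ENSGALG00000021024 had 1265, 1965, 1727 and 1528 normalized counts with the transcripts, against 905.7, 711, 736.7, 818.1 and 962.6 without them, and its log2 difference was 0.76 ± 0.23 (SE). ENSGALG00000027198 had 791.3, 1025, 612.6 and 824.2 with the transcripts, against 533.9, 485.3, 424.8, 481.1 and 368.5 without them, with a log2 difference of 0.91 ± 0.28 (SE). In both genes the sides came close, since PtcDLoop2 replicate 3 was the lowest with the transcripts for ENSGALG00000021024 and control replicate 2 for ENSGALG00000027198.

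**Figure D2:**
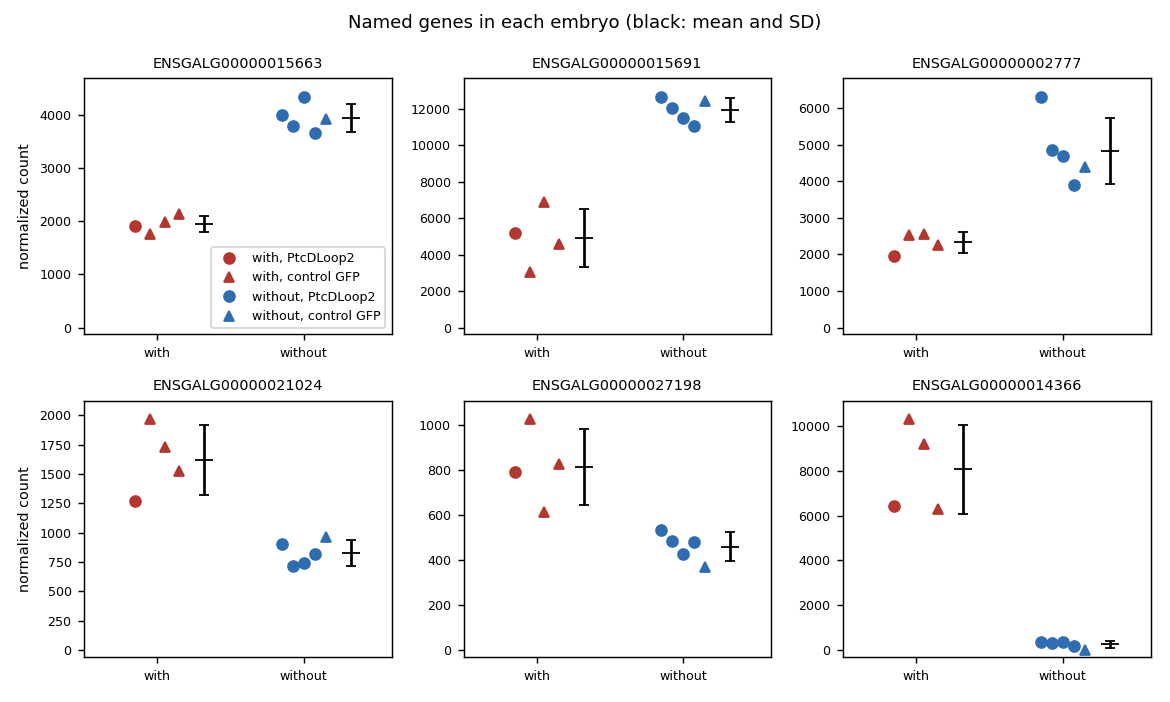
Normalized counts of 6 genes in each embryo, with the 4 embryos with the transcripts on the left and the 5 without them on the right of each panel, circles for PtcDLoop2 and triangles for control GFP, and black bars for the mean and SD. ENSGALG00000015663 sits between 1765 and 2127 with the transcripts and between 3650 and 4336 without them, while the sides come closer in ENSGALG00000021024 and ENSGALG00000027198.

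The sizes of the shifts are given within each construct as a description. Among PtcDLoop2 embryos, where 1 with the transcripts is set against 4 without, the 77 lower genes had a median of 1.65-fold (without over with). Among control embryos, 3 against 1, the median was 1.73-fold. In 71 of the 77 the shift was at least 1.2-fold within both constructs. For the 48 higher genes the medians (with over without) were 1.38-fold among PtcDLoop2 embryos and 1.39-fold among control embryos, and 38 reached 1.2-fold within both. The choice of genes without overlap fixes the direction within each construct, and with the range of folds it also constrains the sizes, so neither is support for the shifts. Both contrasts within a construct lean on a lone embryo.

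**Figure D3:**
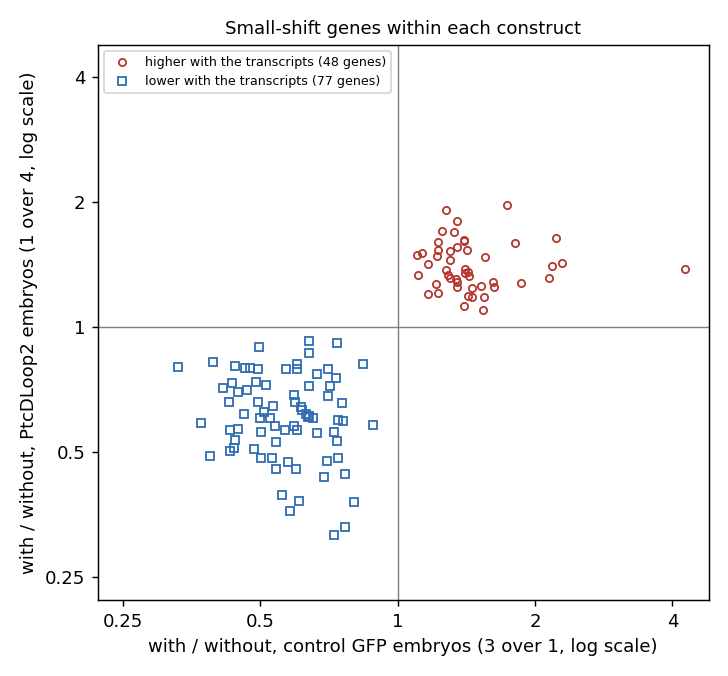
Ratio of the level with to the level without the transcripts for the 125 small-shift genes among control GFP embryos (horizontal, log scale) and among PtcDLoop2 embryos (vertical, log scale). The 77 lower genes lie around medians of 1.73-fold and 1.65-fold lower, and the 48 higher genes around 1.39-fold and 1.38-fold higher.

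The genes of the 2 small-shift groups had higher levels and a smaller spread within a side than the median gene. Their levels over the 9 libraries had medians of 961.2 normalized counts for the higher genes and 1069 for the lower genes, against 731.9 for all 4592. The coefficient of variation with the transcripts had a median of 13.1% for the higher genes, 21.5% for the lower genes and 25.4% for all, and without them 18.6%, 17.8% and 25.7%. A lack of overlap selects genes with a small spread.

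The lower small-shift genes were unevenly placed along the identifier numbers, a property the rule did not use. Of the 77, 28 had numbers from 14000 to 15999 (36.4%), a span that holds 495 of the 4592 genes (10.8%), and all 28 lay between 14644 and 15744. Of the 48 higher genes, 3 lay in that span (6.25%). Within it 5.66% of genes were lower small-shift genes, against 49 of 4097 genes outside. Over all 495 genes of the span the median log2 ratio, with over without, was only -0.04, against 0.02 outside. The block of 14000 to 14999 had the highest share, at 7.41%, that of 15000 to 15999 had 4.30%, and the 24 blocks of 1000 numbers outside the span with 20 or more such genes ranged from 0.00% to 4.26%. The span was picked after the values were seen, so these shares are a description with no test. The deposited files do not say what the order of the numbers reflects.

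The unevenness was marked in a short run of neighbouring identifiers, also picked after the values were seen. Of 54 genes numbered 14600 to 14799 with at least 100 normalized counts in every library, 45 had a lower mean with the transcripts, 15 were lower without overlap (27.8%, against 2.24% of all 4592) and 0 were higher without overlap. The median log2 ratio of their levels, with over without, was -0.52, a median 1.43 times lower, against 0.02 over the other genes. It was -0.50 among PtcDLoop2 embryos and -0.38 among control embryos, where the other genes had -0.01 and 0.07. Taken as 2 blocks of 100 numbers, the first had a median of -0.42 over 23 genes and the second -0.60 over 31 genes. Other blocks of 100 with 10 or more such genes had medians from -0.42 to 0.31, so the second lay below that range and the first within it. Relative to each gene's mean log2 level over the 9 embryos, the median gene of the run was at -0.26 in PtcDLoop2 replicate 3 and at -0.04, -0.21 and -0.32 in control replicates 1, 2 and 4. It was at 0.31, 0.39, 0.21 and 0.16 in PtcDLoop2 replicates 1, 2, 4 and 5 and at 0.22 in control replicate 3. All 5 embryos without the transcripts thus lay above all 4 embryos with them, and control replicate 1 came closest. The run was picked with these values known, which favours such a separation, so it is given as a description.

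**Figure D4:**
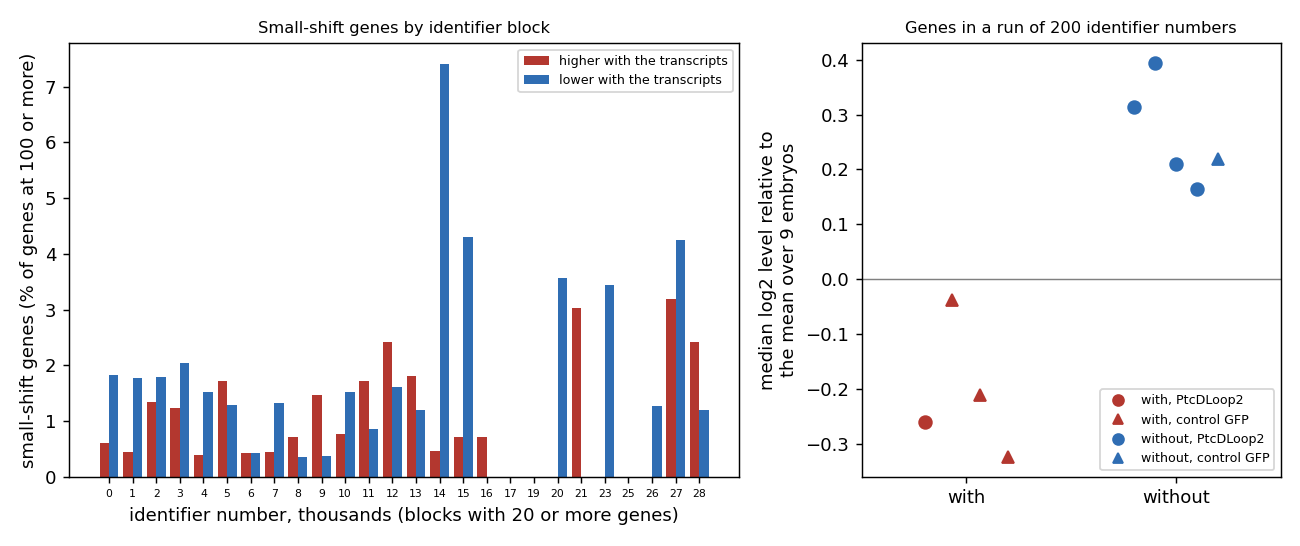
Left, share of genes at 100 or more in every library that were small-shift genes in each block of 1000 identifier numbers, higher with the transcripts in red and lower in blue, with the tallest blue bar at 7.41% for 14000 to 14999. Right, median log2 level of the 54 genes in the run of neighbouring numbers relative to each gene's mean over the 9 embryos, between -0.32 and -0.04 in embryos with the transcripts and between 0.16 and 0.39 in embryos without them.

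The construct asks a separate question, whether the receptor that blocks Hedgehog signalling also moved these genes. With side in the model, limma called 0 of 9609 genes between PtcDLoop2 and control embryos (0.00% in each direction), with 100 at an unadjusted p under 0.05, and limma-voom called 0. Among the small-shift genes the construct reached an unadjusted p under 0.05 in 0 of the 48 higher and 1 of the 77 lower genes, against 1.13% of all 4592. Their median log2 coefficient for PtcDLoop2 minus control was -0.16 for the higher genes and 0.12 for the lower genes, beside 0.02 for all 4592. Each side holds embryos of both constructs, so choosing genes without overlap tends to leave out those with a large construct difference. The counts and coefficients of the small-shift genes therefore cannot answer the question. In the authors' deposited table, which has no term for the side, the median log2 fold change of PtcDLoop2 over control was -0.40 for the 48 higher genes and 0.53 for the 77 lower genes, beside 0.01 for all 4592. For the 27 all-or-none and steep genes the authors' deposited table gives log2 fold changes from -2.998 to -0.80 with adjusted p-values of 0.949 or more. Both comparisons use the same 9 libraries. Of these, 3 of 4 control embryos but 1 of 5 PtcDLoop2 embryos had the transcripts, so a difference by side enters the authors' fold changes. Side and construct cannot be told apart in them. Limma without the side term also called 0 of 9609 genes by construct, with 452 at an unadjusted p under 0.05. That count and the 100 with the side term both lie under 1 in 20 of the genes. The authors' deposited table has an adjusted p under 0.05 for 13 genes (0.107% of 12150), and in 0 of these did the 2 sides separate without overlap. Over the 9609 tested genes outside the set, 1.17% were higher and 1.55% lower without overlap. With shares that low, 0 of 13 does not set these genes apart.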

How the data were processed

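Per the submitters' processing notes, reads were handled with STAR 2.4, cutadapt 1.8.3, DESeq2, DESeq and HTSeq 0.6.1p1, with the genome build galGal4; settings are not given in the sources used here. The authors deposited normalized counts with 1 decimal, each library having been scaled by its own factor. The authors' deposited comparison of PtcDLoop2 with control gives log2 fold changes, p-values and adjusted p-values. All values lay within 0.06 of a whole number of reads once a step was fitted per library.

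The split, the gene lists and the tests were chosen with earlier results of these data known. Genes with at least 10 normalized counts in at least 4 libraries were fitted with limma 3.58.1 in R 4.3.3 (log2(value + 1), mean-variance trend, robust empirical Bayes, Benjamini-Hochberg threshold 0.05). Terms were construct and side, plus their product for the interaction. The adjustment in each fit took in the set members where they passed the filter. Library measures were compared by two-sided exact permutation. Named genes were 2 of the set, and the 2 higher and 2 lower with the smallest p outside it and among small shifts. Others named were chosen after their values were seen. The fit was checked on simulated data. The reference table (GRCg7b) has 25635 rows and 0 Ensembl identifiers. EdgeR and DESeq2 fits were not run, as the file's quoting kept its columns from being registered as counts. Replicates sharing a title number did not deviate together (correlations from -0.07 to 0.06). Figures used matplotlib 3.10.9.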

Additional observations from a re-analysis of the deposited data

Results flagged for a closer look

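In limma, 5 genes outside the set had an interaction of side and construct past the threshold (Benjamini-Hochberg adjusted p from 0.00746 to 0.0299), all negative, of 9609 tested (0.052%). ENSGALG00000014366 (log2 -6.24) is described above. The other 4, ENSGALG00000001754 (-14.44), ENSGALG00000004622 (-13.61), ENSGALG00000028938 (-12.80) and ENSGALG00000001550 (-12.34), were at 0 in PtcDLoop2 replicate 3 and control replicate 3 and between 46.2 and 298.6 normalized counts in the other 7 libraries. These are the 2 embryos whose side is the rarer one for their construct, so a shared property of this pair and an interaction cannot be told apart. In all, 8 of the 12155 genes were at 0 in both and at 10 or more in the other 7 libraries, and 1 gene showed the reverse. The same count was not made for other pairs of libraries, so 8 is not set against them. These 2 embryos also had the most detected genes, 11697 and 11357, against 10074 to 11182 in the rest.

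Among 30 groups of values examined for a lone high or low embryo, 5 were marked, where chance marks about 1 in 20. The rule held set members at 2 or less without the transcripts, where that rate need not apply. No excess is therefore read from the 5. Control replicate 4 had the highest total of normalized counts with the transcripts, at 12356325.4 with the set left out, and PtcDLoop2 replicate 1 the highest first-component score without them, at 137. ENSGALG00000014441 was highest in control replicate 1, at 1979. The remaining 2 are single reads on the side without the transcripts: 0.7 for ENSGALG00000014441 in PtcDLoop2 replicate 5 and 0.8 for ENSGALG00000026991 in control replicate 3.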

How the results depend on the processing

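The counts of genes that differed by side depended on the model. Against 11 called outside the set, limma called 23 with library quality weights (15 higher, 8 lower), 21 with limma-voom and quality weights (15 higher, 6 lower; added after seeing the data), 28 without the construct term, 5 with a replicate block, 7 among control embryos alone, 1 among PtcDLoop2 embryos alone and 0 with a minimum of 100 in every library, which removes the steep genes. Leaving out 1 embryo gave 8 to 12. For construct, against 0, leaving out 1 embryo gave 0 to 4 (4 without PtcDLoop2 replicate 3), dropping both embryos with the fewest detected genes gave 4, and the replicate block gave 0. For the interaction, against 5, a pseudocount of 5 gave 2, quality weights 12, and the minimum of 100, limma-voom and weighted limma-voom 0 each; leaving out 1 embryo gave 0 to 5. It could not be fitted without PtcDLoop2 replicate 3 or control replicate 3, or with the replicate block. Small shifts, against 48 higher and 77 lower, numbered 28 and 42 at a minimum of 500, and 159 and 137 without both embryos with the fewest detected genes. Folds of 1.3 to 1.8 left 36 higher and 37 lower. Leaving out 1 embryo gave 63 to 108 higher and 92 to 113 lower, as fewer embryos overlap less often. The cause of the other shifts was not tested. None of the 9 genes named by rule for the set, the side and the small shifts changed direction in the 23 or 24 alternatives run on each. The 2 sides do not overlap in any of these 9, which largely fixes their direction in advance. The lack of a reversal is therefore no support for them. The other genes named were not rerun. EdgeR and DESeq2 were not run. Depth limits low values most, as a value near 1 normalized count is about 1 read. Besides, 2 combinations of side and construct rest on 1 embryo each.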
